A study of Mus musculus with 60 samples.

Results

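The core and general pluripotency genes Pou5f1, Sox2, Sall4, Utf1, Dppa2, Dppa4, Dppa5a, Lin28a and Gdf3 were followed as a named list of 9 genes, matched by symbol to 9 of the 55487 genes counted in the series. Each table also holds 1146 repeat subfamilies, giving 56633 features in all. RNA was sequenced from E14JU mouse embryonic stem cells (mESCs) in 60 libraries that form 20 groups of 3. All cells, controls included, carry a dTAG degron on POLE4, a subunit of the leading strand DNA polymerase, so that the dTAG compound removes the protein. The first line, called WT here, is POLE4-dTAG alone, and the second is POLE4-dTAG/MCM2-2A, in which the helicase subunit MCM2 carries the histone-binding mutation 2A. Each line is 1 clone, so that the mutation and the clone cannot be told apart. Cells in serum and LIF received DMSO (Ctrl and Ctrl MCM2-2A) or 1 µM dTAG (dPOLE4 and dPOLE4 MCM2-2A) for 24 h and were taken at T0, or were moved to retinoic acid (RA) without LIF and taken after 12 h (T12), 24 h (T24) and 60 h (T60). A separate table, whose columns are marked as a second batch, holds the same 4 arms after 96 h of DMSO or dTAG without RA, and it was compared only within itself. The treatment protocol in the labels lists other RA times than the samples' time field, which was used here.

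Pluripotent cells keep the ability to form all embryonic lineages through a network of transcription factors that activate each other and hold lineage genes silent. Pou5f1 (OCT4) and Sox2 bind DNA as partners at the centre of this network, and Sall4 acts beside them. Utf1 is a chromatin factor of undifferentiated cells, Dppa2 and Dppa4 are paired chromatin proteins that prime developmental promoters, and Dppa5a encodes a small RNA-binding protein of early embryos. Lin28a binds RNA and blocks maturation of let-7 miRNAs, and Gdf3 is a TGF-beta family ligand. Withdrawal of LIF with RA takes mESCs out of this state.

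RefSeq promoter entries on GRCm38.p6 matched 4 of the 9 genes: Pou5f1, Sox2, Utf1 and Lin28a. They are shown because, of these 4, Pou5f1 and Utf1 fell furthest along RA in Ctrl and Lin28a changed least. Each line gives the bases before both the RefSeq start and the GENCODE gene start, on the gene's own strand, with matches to the motifs searched in capitals. The positions are chr17:35505782-35506017 (plus strand) for Pou5f1, chr3:34649745-34649994 (plus strand) for Sox2, chr7:139943606-139943788 (plus strand) for Utf1 and chr4:134018842-134019066 (minus strand) for Lin28a.
Pou5f1: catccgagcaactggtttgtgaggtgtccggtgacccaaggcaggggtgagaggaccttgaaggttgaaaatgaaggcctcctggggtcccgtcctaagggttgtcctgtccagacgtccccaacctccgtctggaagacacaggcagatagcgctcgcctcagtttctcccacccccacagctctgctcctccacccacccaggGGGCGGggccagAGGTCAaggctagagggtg
Sox2: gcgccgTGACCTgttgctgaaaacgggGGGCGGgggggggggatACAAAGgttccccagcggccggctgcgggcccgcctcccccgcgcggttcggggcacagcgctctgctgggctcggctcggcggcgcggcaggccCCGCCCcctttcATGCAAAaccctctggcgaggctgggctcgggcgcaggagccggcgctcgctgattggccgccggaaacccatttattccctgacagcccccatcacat
Utf1: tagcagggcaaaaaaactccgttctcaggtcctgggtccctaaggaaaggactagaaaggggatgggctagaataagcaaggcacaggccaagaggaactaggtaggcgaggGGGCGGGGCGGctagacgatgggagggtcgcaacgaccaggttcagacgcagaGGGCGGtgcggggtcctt
Lin28a: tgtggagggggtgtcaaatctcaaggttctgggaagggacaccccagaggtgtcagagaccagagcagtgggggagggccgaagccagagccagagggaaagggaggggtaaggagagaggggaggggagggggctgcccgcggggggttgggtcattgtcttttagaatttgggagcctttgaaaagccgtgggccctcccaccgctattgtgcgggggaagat
The motifs were searched on both strands: the GC box GGGCGG, the nuclear receptor half-site AGGTCA, the octamer core ATGCAAA and the SOX core ACAAAG. Pou5f1 held a GC box and a half-site close together next to its start, and Sox2 held all 4 motifs. Utf1 held 3 GC boxes, 2 of which overlap, and the Lin28a window held none of the 4. Of all 32851 promoter entries, 30.8% held a GC box and 13.3% a half-site in a window of the 236 bases used for Pou5f1. In the 250-base window of Sox2 these shares were 32.7% and 14.0%, with 4.12% for the octamer core and 16.5% for the SOX core. In the 183-base window of Utf1, 21.5% held a GC box, and in the 225-base window of Lin28a 29.2% did. A match to such short letters describes the sequence only, and its absence says only that the letters are not in the window.

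All 9 genes passed the low-count filter in every comparison. A library of the 24 h and RA table held from 10461077 to 46609151 counts (48 libraries), and one of the 96 h table from 7126100 to 23598266 (12 libraries). Counts per gene and library ranged from 45 for Gdf3 in a Ctrl T60 library to 47691 for Dppa5a. No pair of libraries in a group was as alike as counting error alone would make it, with a chi-square per feature of at least 2.7. The study's methods call the 3 libraries of a group biological replicates. Nothing in the labels says whether they came from separate cultures, and the p-values measure the spread between these libraries. At T0 the MCM2-2A line differed from WT by -0.70 ± 0.063 (log2, SE) in Mcm2 RNA and by -0.68 ± 0.059 in Pole4 RNA, both called. The mutation itself does not show in counts, and dTAG acts on the POLE4 protein, so that Pole4 RNA cannot check the treatment (difference -0.01 ± 0.074 in WT at T0). Values below are normalised read counts scaled to library size (CPM), and differences are log2 fold changes with their standard error from edgeR's quasi-likelihood test. A gene was called when its Benjamini-Hochberg adjusted p over all features was below 0.01 and its log2 fold change exceeded 0.58 in size, and only called genes are said to rise or fall.

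In undifferentiated Ctrl cells, the 9 genes spanned a wide range of levels. Per kilobase of exon, Dppa5a was the highest at 1070 CPM per kb in Ctrl T0, ahead of Pou5f1 at 377, Utf1 at 209, Sox2 at 153, Sall4 at 137 and Lin28a at 118. Dppa4 at 49.4, Dppa2 at 42.5 and Gdf3 at 34.0 were the lowest. The 5 markers fixed for mESCs (Pou5f1, Sox2, Nanog, Zfp42 and Esrrb) all averaged above 1 CPM in every group. Dppa5a lies beside its near copy Dppa5c on chromosome 9, Sox2 lies inside the noncoding gene Sox2ot, and Sall4 overlaps Gm14261. Libraries were strand-specific, the strand setting of the counting is not given in the sources used here, and reads shared by such neighbours could be counted for either.

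Most of these genes fell along RA in Ctrl cells. On the log2 scale, the larger part of the change came between T24 and T60. In CPM, Pou5f1, Sox2 and Utf1 were already at 45.9%, 44.4% and 42.6% of their T0 mean at T24. By T60, 8 of 9 genes had fallen from T0 and 0 had risen, where 50.6% of all features tested were called. The median log2 fold change was -2.01 over the 9 genes and -0.013 over all features. Pou5f1, at 869, 842 and 830 CPM at T0, stood at 37.9, 25.0 and 28.1 CPM at T60. The 2 groups are far apart, and the log2 fold change was -4.80 ± 0.11 (adjusted p = 3.09e-14, edgeR). Gdf3 fell by 4.13 ± 0.097, Utf1 by 4.06 ± 0.086 and Sox2 by 3.45 ± 0.072 on the log2 scale. Less RNA per cell and fewer cells that hold the RNA cannot be told apart in these bulk samples.

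**Figure D1:**
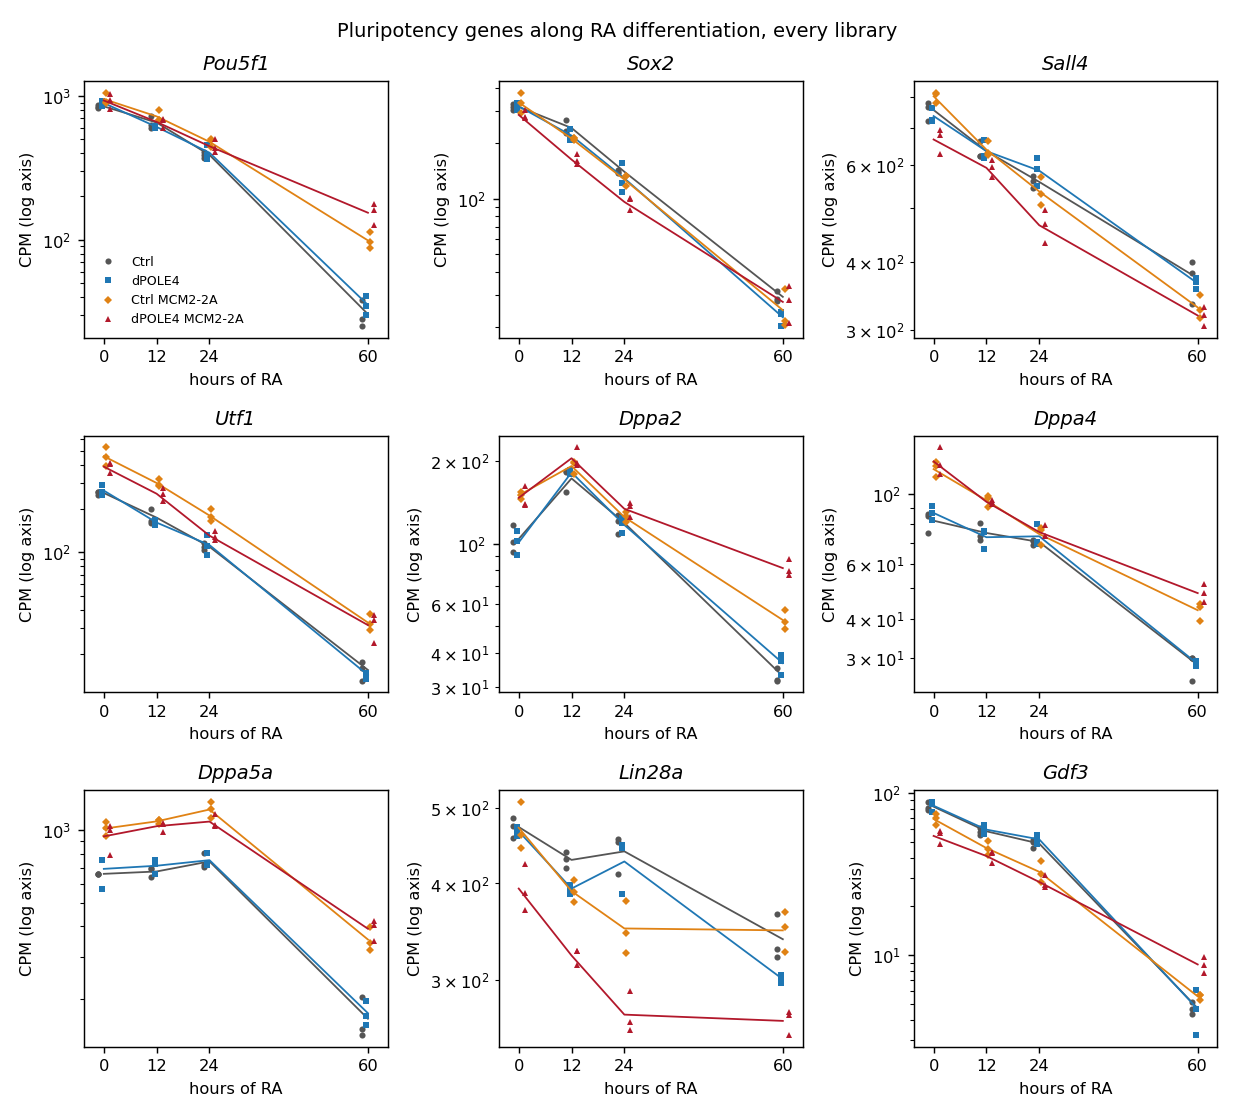
Normalised read counts (CPM, log axis) of the 9 genes at 0, 12, 24 and 60 h of RA in Ctrl, dPOLE4, Ctrl MCM2-2A and dPOLE4 MCM2-2A; each point is a library, set slightly apart in time for clarity, and lines join the means of 3 libraries. Pou5f1, Sox2, Utf1 and Gdf3 fell most, Dppa2 was higher at T12 than at T0, and Lin28a changed least.

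The other members changed less in Ctrl. Dppa5a fell by 2.01 ± 0.10, Dppa2 by 1.68 ± 0.085, Dppa4 by 1.55 ± 0.081 and Sall4 by 1.04 ± 0.070 from T0 to T60. Sall4 stood at 722, 780 and 766 CPM at T0 and at 382, 335 and 400 CPM at T60, so that 49.3% of its mean level remained. For Pou5f1, 3.58% remained, for Gdf3 5.72%, for Utf1 6.02% and for Sox2 9.30%. Lin28a was the exception among the 9, at 475, 458 and 486 CPM at T0 and 329, 322 and 365 CPM at T60. Its groups did not overlap, but the log2 fold change of -0.50 ± 0.063 (adjusted p = 3.45e-06) was short of the fold threshold, and 71.7% of the level remained.

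Each step along RA was also tested in Ctrl, while timing was not compared between genes by a test. In the first 12 h, where 11.3% of features were called, Dppa2 was the 1 gene of the 9 that passed, and it rose. This count lies near the share of all features and is not read as a result about the 9 genes. Of the 9 log2 fold changes, 7 lay below 0, and Gdf3 and Sox2 stood at 70.5% and 76.8% of their T0 mean. Dppa2 stood at 93.5, 101 and 117 CPM at T0 and at 182, 155 and 184 CPM at T12, without overlap, a log2 fold change of 0.74 ± 0.086 (adjusted p = 3.79e-05). Over the same step Pou5f1 changed by -0.37 ± 0.072 and Utf1 by -0.56 ± 0.079, both short of the fold threshold. Its partner gene Dppa4 changed by -0.13 ± 0.070, at 75.0, 86.3 and 85.1 CPM against 71.4, 80.8 and 73.3 CPM, with overlap. Dppa5a was at 661, 661 and 658 CPM at T0 and at 691, 695 and 639 CPM at T12, which also overlap.

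Between T12 and T24 in Ctrl, 3 of 9 genes fell where 6.97% of features were called. These were Sox2 (-0.79 ± 0.064), Pou5f1 (-0.75 ± 0.075) and Utf1 (-0.67 ± 0.083), the last of which lost its call without the second Ctrl T12 library (-0.56). Between T24 and T60, 7 of 9 fell where 35.7% of features were called, led by Pou5f1 (-3.65 ± 0.11) and Gdf3 (-3.34 ± 0.10). Dppa5a, which stood at 804, 703 and 721 CPM at T24, was at 205, 142 and 150 CPM at T60, a fall by 2.15 ± 0.11 after mean levels of 102% and 113% of T0 at T12 and T24. Sall4 (-0.57 ± 0.065) just missed the fold threshold, which it passed with DESeq2, with DESeq2 size factors and without the filter (-0.59 in each) and without the first (-0.60) or the second (-0.59) T24 or the first (-0.59) or the third (-0.63) T60 library, and Lin28a stood at -0.36 ± 0.065.

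RA was also followed in the other 3 arms. In dPOLE4, Dppa2 rose and Utf1 fell in the first 12 h, 1 gene each way (11.7% of features called), 3 fell from T12 to T24 (6.30%), 8 fell from T24 to T60 (32.0%) and 9 fell from T0 to T60 (48.1%). In Ctrl MCM2-2A the genes that fell numbered 1 (8.65%), 4 (8.83%), 8 (31.6%) and 8 (47.5%) over these steps, and 0 rose. In dPOLE4 MCM2-2A they numbered 2 (7.79%), 3 (7.75%), 7 (25.3%) and 9 (42.2%), and 0 rose. At T12, Dppa2 rose in dPOLE4 (0.84 ± 0.065) and stood at 0.39 ± 0.066 in Ctrl MCM2-2A and 0.49 ± 0.089 in dPOLE4 MCM2-2A, short of the fold threshold. Lin28a fell from T0 to T60 in dPOLE4 (-0.65 ± 0.046) and in dPOLE4 MCM2-2A (-0.59 ± 0.084) and stood at -0.43 ± 0.070 in Ctrl MCM2-2A. The Lin28a call in dPOLE4 MCM2-2A was lost with DESeq2 (-0.57), with DESeq2 size factors (-0.58), without the first T0 library (-0.52) and without the first (-0.57) or the second (-0.53) T60 library.

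**Figure D2:**
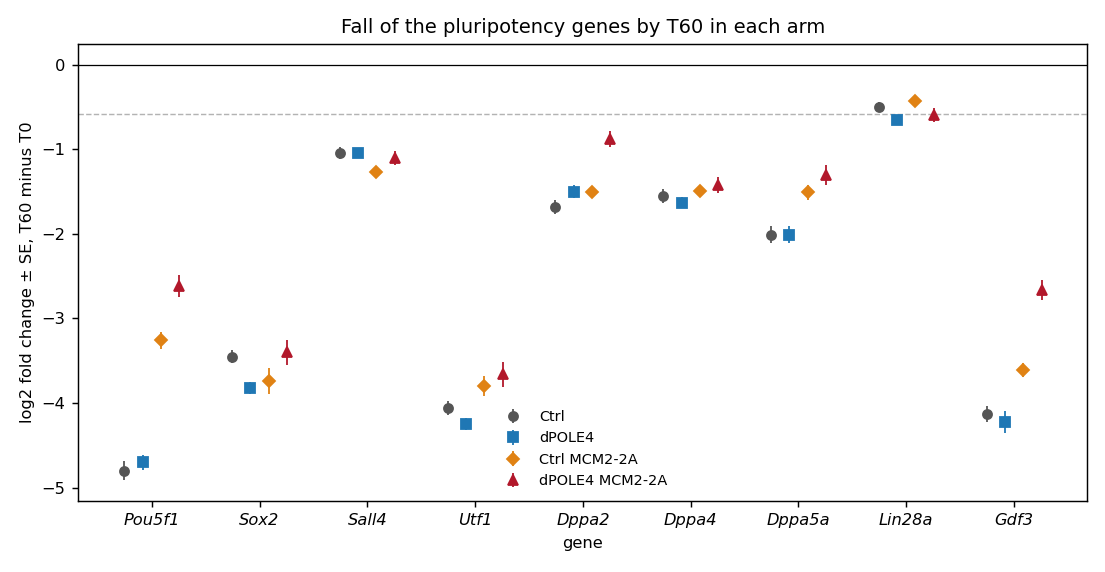
Log2 fold change of T60 against T0 for the 9 genes in the 4 arms, with bars giving the standard error from edgeR; the dashed line marks the fold threshold of -0.58. Pou5f1 ranges from -4.80 in Ctrl to -2.62 in dPOLE4 MCM2-2A, while the 4 values of Sox2 lie between -3.82 and -3.40.

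Several step calls turned on 1 library. In dPOLE4 from T12 to T24, the call of Pou5f1 (-0.59) was lost without the first (-0.56) or the third (-0.52) T24 library and that of Dppa2 (-0.63) without the second (-0.58). In Ctrl MCM2-2A, Sox2 from T0 to T12 (-0.62) lost its call without the first T0 library (-0.54), and Pou5f1 from T12 to T24 (-0.58) without the filter (-0.58) and without the third T12 (-0.52) or the third T24 (-0.53) library. Utf1 from T0 to T12 in Ctrl MCM2-2A (-0.58) was called with DESeq2 (-0.60), with its size factors (-0.59) and without the filter (-0.60). Other calls were gained in this way: Utf1 from T0 to T12 in Ctrl without the third T0 (-0.59) or the second T12 (-0.67) library, and Utf1 (-0.68) and Gdf3 (-0.61) in Ctrl MCM2-2A without the third T0 library. In dPOLE4 MCM2-2A, Utf1 from T0 to T12 (-0.61) lost its call without the second T0 (-0.57) or the third T12 (-0.54) library, and Dppa2 from T12 to T24 (-0.61) without the third T12 (-0.54) or the second T24 (-0.57) library.

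Of 20 other genes of the pluripotency network, 19 fell from T0 to T60 in Ctrl and 0 rose, where 50.6% of features were called. The growth factor gene Fgf4 (-6.59 ± 0.13) and the nuclear receptor gene Nr0b1 (-6.37 ± 0.14) fell most, and Tbx3 (0.12 ± 0.064) was not called. The median of these 20 genes was -4.01, beside -2.01 for the 9. Of 11 relatives of the members, among them Dppa3, which is on both lists, 3 rose and 5 fell in Ctrl. Sall2 rose by 1.99 ± 0.10, Sox3 by 1.39 ± 0.21 and Lin28b, the second Lin28 gene, by 0.88 ± 0.090, while Pou3f1 fell by 2.95 ± 0.11.

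After POLE4 depletion in WT cells none of the 9 genes was called by edgeR at any time. The share of features called was 0% at T0, T12, T24 and 96 h and 0.193% at T60, and 0 of 9 genes were called at each time with both edgeR and DESeq2. At an unadjusted p below 0.05 there were 0, 1, 0 and 2 genes at T0, T12, T24 and T60 and 1 gene at 96 h. The share of all features below this p is not given, so such counts are not read as a result about the 9 genes. The values nearest to a call were Sox2 at T60 and Lin28a at 96 h. Sox2 stood at 28.6, 31.5 and 27.7 CPM in Ctrl T60 and at 23.7, 24.1 and 20.3 CPM in dPOLE4 T60, without overlap, a difference of -0.35 ± 0.091 (adjusted p = 0.0720). Lin28a stood at 555, 561 and 533 CPM in Ctrl and at 454, 409 and 468 CPM in dPOLE4 at 96 h, also without overlap (-0.30 ± 0.067, adjusted p = 0.138 with edgeR and 0.00999 with DESeq2). With the replicate number as a block, which pairs the 96 h libraries, the adjusted p of Lin28a was 0.000849, and its size stayed under the fold threshold.

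In MCM2-2A cells, POLE4 depletion gave no call for the 9 genes in undifferentiated cells or early in RA, and 3 rose at T60. The shares of features called were 0.0715% at T0, 0.404% at T12, 1.02% at T24, 2.25% at T60 and 0.304% at 96 h. The number of the 9 genes called under edgeR was 0 at T0, T12, T24 and 96 h, where DESeq2 called 0 as well. At an unadjusted p below 0.05 there were 4, 3, 5 and 5 genes at these times. The share of all features is again not given, so these counts are not read as a result about the 9 genes. Sox2 and Lin28a were among these genes at each of the 4 times, with values below 0. At T24, Sox2 stood at 132, 132 and 117 CPM in Ctrl MCM2-2A and at 99.6, 101 and 87.1 CPM in dPOLE4 MCM2-2A, without overlap (-0.40 ± 0.071, adjusted p = 0.00431). Utf1 was at -0.46 ± 0.073 (adjusted p = 0.00194) and Lin28a at -0.36 ± 0.068 (adjusted p = 0.00590), all 3 below the adjusted p threshold and short of the fold threshold.

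Lin28a, the let-7 regulator, lay lower after POLE4 depletion in MCM2-2A cells at each time without passing both thresholds. The differences were -0.25 ± 0.079 at T0, -0.28 ± 0.052 at T12, -0.36 ± 0.068 at T24, -0.39 ± 0.066 at T60 and -0.45 ± 0.068 at 96 h, and the groups did not overlap at any of the 5 times. At 96 h it stood at 449, 430 and 432 CPM in Ctrl MCM2-2A and at 324, 310 and 326 CPM in dPOLE4 MCM2-2A. The adjusted p lay between 0.00457 at T60 and 0.194 at T0. In WT cells Lin28a also lay lower in dPOLE4, without overlap, at T12, T60 and 96 h. It stood at 388, 395 and 398 CPM against 419, 439 and 430 CPM in Ctrl at T12. At T60 it stood at 301, 298 and 305 CPM against 329, 322 and 365 CPM in Ctrl. The WT groups overlapped at T0 and T24. The Lin28a effect was not called as different between the lines at any time.

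**Figure D3:**
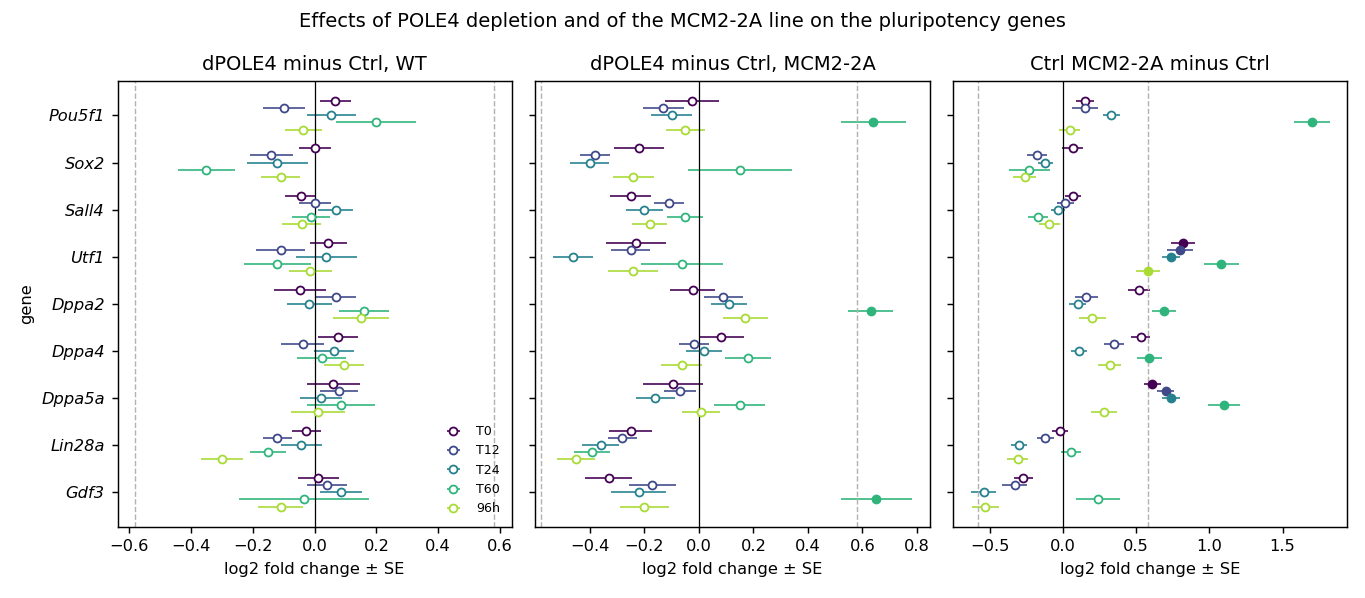
Log2 fold changes of the 9 genes at T0, T12, T24, T60 and 96 h for dPOLE4 against Ctrl in WT, the same in MCM2-2A, and Ctrl MCM2-2A against Ctrl; bars give the standard error, filled points are called and dashed lines mark the fold threshold. The filled points are Pou5f1, Dppa2 and Gdf3 at T60 in the middle panel and, in the right panel, Utf1 at all times, Dppa5a from T0 to T60, and Pou5f1, Dppa2 and Dppa4 at T60.

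At T60, Pou5f1, Dppa2 and Gdf3 were higher in dPOLE4 MCM2-2A than in Ctrl MCM2-2A. Pou5f1 stood at 113, 87.7 and 96.1 CPM in Ctrl MCM2-2A and at 176, 160 and 127 CPM in dPOLE4 MCM2-2A. Every dPOLE4 MCM2-2A library was above every Ctrl MCM2-2A library, and the difference was 0.64 ± 0.12 (adjusted p = 0.00666). Dppa2 was at 57.1, 51.8 and 48.8 CPM against 76.5, 79.7 and 87.9 CPM (0.63 ± 0.082, adjusted p = 0.00116). Gdf3 was at 5.69, 5.72 and 5.31 CPM against 9.79, 8.77 and 7.79 CPM (0.65 ± 0.13, adjusted p = 0.00991). The other 6 were not called, with Lin28a at -0.39 ± 0.066 (adjusted p = 0.00457) and Sox2 at 0.15 ± 0.19. The median of the 9 genes was 0.15 and that of all features 0.0039. DESeq2 and the fit with the replicate number as a block called these 3 genes as well.

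These 3 calls lie close to the threshold and depend on single libraries. Without the third Ctrl MCM2-2A library 0 of 9 genes were called (Pou5f1 0.63, Dppa2 0.58 and Gdf3 0.62). Without the second Ctrl MCM2-2A library (Pou5f1 0.57, Gdf3 0.68), the first dPOLE4 MCM2-2A library (Pou5f1 0.54, Gdf3 0.56) or the second (Pou5f1 0.62, Gdf3 0.65), Dppa2 alone was called. Gdf3 also lost its call without the first Ctrl MCM2-2A library (0.67), and Dppa2 without the third dPOLE4 MCM2-2A library (0.57).

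Some other network genes were higher at T60 as well. Of the 20, 3 rose and 0 fell, where 2.25% of features were called. The 3 were the Nodal co-receptor gene Tdgf1 (0.96 ± 0.14), Nr5a2 (0.75 ± 0.12) and Tfcp2l1 (0.63 ± 0.11). The median over the list was 0.44. DESeq2 and the fit with the block called 5 of the 20. Of the relatives, Lin28b fell (-0.85 ± 0.11). The neighbours of the 3 called genes were not called. Tcf19 beside Pou5f1 stood at 0.54 ± 0.10 (adjusted p = 0.00872, short of the fold threshold) and H2-Q10 at 0.37 ± 0.17. The others were Dppa4 (0.18 ± 0.083) and Morc1 (0.51 ± 0.20) on either side of Dppa2, and Apobec1 (0.53 ± 0.25) and Dppa3 (1.08 ± 0.22, adjusted p = 0.0116) on either side of Gdf3. Within 5 Mb on each side, the median over the genes tested was 0.03 around Pou5f1, -0.04 around Dppa2 and 0.03 around Gdf3.

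**Figure D4:**
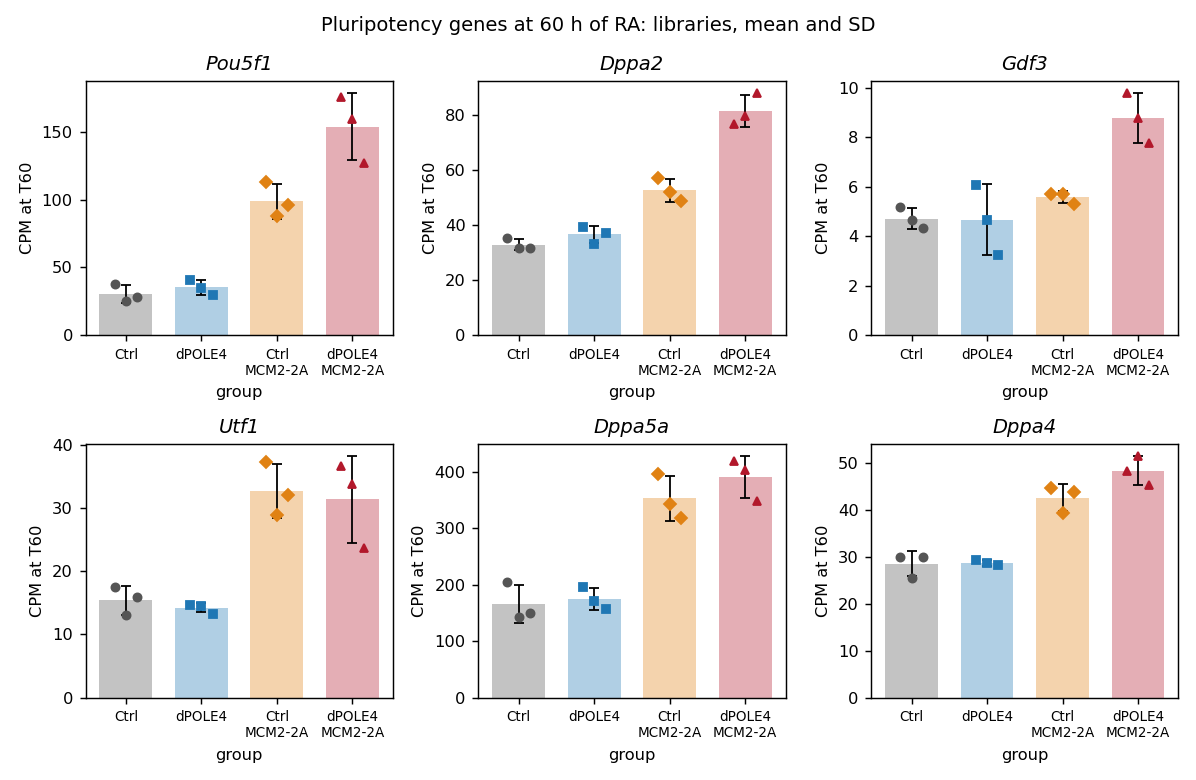
Normalised read counts (CPM) at T60 of the 6 genes called in dPOLE4 MCM2-2A against Ctrl; points are libraries, bars the mean and whiskers the SD of 3 libraries, and each axis starts at 0. Pou5f1 averaged 30.3 CPM in Ctrl, 35.1 in dPOLE4, 98.8 in Ctrl MCM2-2A and 154 in dPOLE4 MCM2-2A.

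Whether POLE4 depletion acted differently in the MCM2-2A line than in WT was tested as an interaction at each time. No member was called in it. The shares of features called were 0.00526% at T0, 0.0159% at T12, 0.0351% at T24, 0.1% at T60 and 0% at 96 h, and DESeq2 and the fit with the block also called 0 of the 9. At an unadjusted p below 0.05 there were 3, 2, 4 and 5 genes at T0 to T60 and 0 at 96 h. The share of all features below this p is again not given, and these counts are not read as a result either. At T60 the difference of the effects was 0.48 ± 0.12 for Dppa2 (adjusted p = 0.0918), 0.69 ± 0.25 for Gdf3 (adjusted p = 0.299) and 0.45 ± 0.20 for Pou5f1 (adjusted p = 0.450). The higher T60 levels after POLE4 depletion in MCM2-2A are therefore not shown to differ from the effect in WT.

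The MCM2-2A line differed from WT in 2 of the 9 genes before any RA, Utf1 and Dppa5a. The shares of features called between the control arms were 18.9% at T0, 14.5% at T12, 17.3% at T24, 16.9% at T60 and 15.7% at 96 h. Among the 9 genes, 2 were higher at T0, T12 and T24, 5 at T60 and 1 at 96 h, and 0 were lower. Except at T60, these numbers lie near the shares of all features, so they are not read as a result about the 9 genes. The medians of the 9 were 0.15, 0.15, 0.10, 0.59 and 0.04, and those of all features lay between -0.018 and 0.01. Utf1 stood at 260, 261 and 247 CPM in Ctrl T0 and at 530, 456 and 390 CPM in Ctrl MCM2-2A T0, without overlap (0.82 ± 0.083, adjusted p = 1.00e-05). It stayed higher at T12 (0.80 ± 0.087), T24 (0.74 ± 0.062) and T60 (1.08 ± 0.12). The genes on either side of Utf1 also lay above WT at T0. Kndc1 stood at 1.15 ± 0.12 and was called, and Gm16201 stood at 0.74 ± 0.21 (adjusted p = 0.0119) and was not. Within 5 Mb on each side of Utf1, the median over the genes tested was 0.18, beside -0.018 over all features. Whether Utf1 and its neighbours differ for a shared reason was not tested.

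The Utf1 difference was smaller in the 96 h table. There it stood at 349, 329 and 339 CPM in Ctrl and at 454, 530 and 520 CPM in Ctrl MCM2-2A, again without overlap. The fold change of 0.58 ± 0.081 (adjusted p = 0.000121) lies at the threshold. The call was lost with DESeq2 (0.56), with DESeq2 size factors (0.58), without the filter (0.56) and with the replicate number as a block (0.58), which pairs these libraries. It was also lost without the second (0.56) or the third (0.58) Ctrl library and without the second (0.54) or the third (0.55) Ctrl MCM2-2A library.

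Dppa5a was higher in the MCM2-2A line through the whole RA course. It stood at 661, 661 and 658 CPM in Ctrl T0 and at 1026, 942 and 1077 CPM in Ctrl MCM2-2A T0, without overlap (0.61 ± 0.059, adjusted p = 7.47e-06). The difference was 0.70 ± 0.060 at T12, 0.74 ± 0.062 at T24 and 1.10 ± 0.11 at T60, each called. At 96 h it was 0.28 ± 0.091 (adjusted p = 0.0320), with 636, 745 and 587 CPM in Ctrl and 822, 767 and 768 CPM in Ctrl MCM2-2A. Its near copy Dppa5c was also higher at T0 (1.17 ± 0.25), while Ooep on the other side was not called (0.13 ± 0.054). At T0 Dppa2 stood at 0.52 ± 0.073 and Dppa4 at 0.53 ± 0.064, with adjusted p of 0.000124 and 3.75e-05, both short of the fold threshold, which Dppa2 passed without the third Ctrl library (0.61) and Dppa4 without the third Ctrl MCM2-2A library (0.60).

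Gdf3, the TGF-beta family ligand gene, lay lower in the MCM2-2A line before T60 and at 96 h. The difference was -0.27 ± 0.063 at T0, -0.33 ± 0.084 at T12, -0.54 ± 0.086 at T24 and -0.53 ± 0.090 at 96 h, with adjusted p of 0.00403, 0.0103, 6.37e-05 and 0.000580 and no overlap of the groups at any of these times. At T24 it stood at 45.6, 49.7 and 51.1 CPM in Ctrl and at 28.3, 38.0 and 31.7 CPM in Ctrl MCM2-2A. These values were short of the fold threshold, which was passed at T24 without the first Ctrl (-0.59) or the second Ctrl MCM2-2A library (-0.68) and at 96 h without the third Ctrl (-0.58) or first Ctrl MCM2-2A library (-0.59). Sox2, Sall4 and Lin28a were not called at any of the 5 times.

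At T60 the largest difference between the lines among the 9 genes was in Pou5f1. Ctrl held 37.9, 25.0 and 28.1 CPM and Ctrl MCM2-2A 113, 87.7 and 96.1 CPM, without overlap, a difference of 1.70 ± 0.12 (adjusted p = 7.84e-08) or 3.24-fold. At T0 the same comparison gave 0.15 ± 0.061 (adjusted p = 0.0608). Sox2, the DNA-binding partner of OCT4, stood at 28.6, 31.5 and 27.7 CPM in Ctrl and at 32.2, 20.6 and 21.7 CPM in Ctrl MCM2-2A at T60, with overlap (-0.23 ± 0.14, adjusted p = 0.200). Dppa2 (0.69 ± 0.083) and Dppa4 (0.59 ± 0.086) were called as well. Dppa4 lost its call with DESeq2 (0.58) and without the second Ctrl library (0.52) or the first (0.56) or the third (0.58) Ctrl MCM2-2A library.

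Of the 20 other network genes, 13 were called higher at T60 in the MCM2-2A line and 0 lower, where 16.9% of features were called. Their median was 0.81. Among those not called, Dppa3 was the 1 gene below 0 (-0.69 ± 0.30, adjusted p = 0.0762). Tcl1 (2.63 ± 0.35) and Nanog (2.02 ± 0.12) led. At T0 these 2 were at 0.02 ± 0.093 and -0.15 ± 0.055, while Tdgf1 (1.13 ± 0.058) and Tbx3 (0.63 ± 0.051) were higher and Dppa3 lower (-2.09 ± 0.18). Among the relatives at T60, Sall2 was higher (0.87 ± 0.074), and Sox1 (-1.47 ± 0.25), Sall1 (-1.28 ± 0.079) and Lin28b (-0.72 ± 0.089) were lower. Of the genes beside the called members at T60, Kndc1 next to Utf1 (1.02 ± 0.17) and Ooep next to Dppa5a (0.97 ± 0.16) were higher and Gm16201 on the other side of Utf1 was lower (-0.78 ± 0.18). Tcf19 (0.22 ± 0.12) and H2-Q10 (-0.05 ± 0.20), on either side of Pou5f1, were not called, nor were Gsta4 beside Dppa5a (-0.06 ± 0.077), Morc1 beside Dppa2 (-0.02 ± 0.18) and Nectin3 beside Dppa4 (-0.45 ± 0.074, adjusted p = 0.000157, short of the fold threshold). Dppa2 and Dppa4 are each other's neighbours on chromosome 16. Within 5 Mb on each side, the median over the genes tested was -0.11 around both, 0.01 around Pou5f1, 0.05 around Utf1 and -0.1 around Dppa5a.

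In dPOLE4 MCM2-2A against Ctrl at T60, 6 of 9 genes were higher and 0 lower, where 21.8% of features were called. This comparison shares its libraries with those above, and its values are given beside them. Pou5f1 differed by 2.35 ± 0.14 (5.11-fold), Dppa2 by 1.32 ± 0.089, Dppa5a by 1.25 ± 0.12, Utf1 by 1.03 ± 0.16, Gdf3 by 0.90 ± 0.16 and Dppa4 by 0.78 ± 0.098. For these 6 genes the lowest dPOLE4 MCM2-2A library was above the highest Ctrl library. They were picked by their call in these same libraries, so the lack of overlap is no further support. Utf1 was at 36.6, 33.8 and 23.6 CPM in dPOLE4 MCM2-2A, close to the 37.3, 28.9 and 32.0 CPM of Ctrl MCM2-2A (difference -0.061 ± 0.15). Sox2 (-0.073 ± 0.15), Sall4 (-0.21 ± 0.083) and Lin28a (-0.33 ± 0.079, adjusted p = 0.00391) were not called. Of the 20 network genes, 15 were higher and 0 lower, with Tdgf1 (2.78 ± 0.16) and Tcl1 (2.77 ± 0.35) leading.

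Markers of other cell types were summed in each arm at T60, with no test between the arms. The 6 primitive endoderm markers summed to between 293 and 365 CPM in Ctrl, 238 and 287 in dPOLE4, 527 and 585 in Ctrl MCM2-2A and 412 and 459 in dPOLE4 MCM2-2A, with all 6 averaging above 1 CPM in each. Dab2 was the largest part, at a mean of 165 CPM in Ctrl and 210 CPM in dPOLE4 MCM2-2A. Gata4, Sox17 and Sox7 also had higher means in dPOLE4 MCM2-2A than in Ctrl. Gata6 (77.5 CPM in Ctrl and 74.5 CPM in dPOLE4 MCM2-2A) and Foxa2 (15.1 and 11.8 CPM) did not. The 5 trophectoderm markers summed to between 773 and 917 CPM in Ctrl and between 927 and 988 CPM in dPOLE4. In Ctrl MCM2-2A they summed to between 1135 and 1348 CPM, and in dPOLE4 MCM2-2A to between 1168 and 1471 CPM. The keratin gene Krt8 made up most of this sum, at a mean of 783 CPM in Ctrl and 1270 CPM in dPOLE4 MCM2-2A. In these 2 arms Gata3 was at 75.8 and 27.4 CPM, and Cdx2, Eomes and Elf5 averaged below 10 CPM in both. The 4 neural markers summed to a mean of 311 CPM in Ctrl, 275 in dPOLE4, 233 in Ctrl MCM2-2A and 174 in dPOLE4 MCM2-2A. This sum was 220 CPM in undifferentiated Ctrl T0 cells, and Sox1 made up 5.91 CPM of it in Ctrl T60. The 5 RA response markers summed to a mean of 689 CPM in Ctrl, 764 in dPOLE4, 658 in Ctrl MCM2-2A and 682 in dPOLE4 MCM2-2A. The 4 fibroblast markers summed to between 393 and 509 CPM in Ctrl and between 310 and 324 CPM in dPOLE4. Their sums were between 197 and 228 CPM in Ctrl MCM2-2A and between 103 and 118 CPM in dPOLE4 MCM2-2A. The 4 mesoderm markers summed to at most 10.6 CPM in the 4 arms at T60, with the early mesoderm gene Mesp1 at 0 in at least 1 library of Ctrl and of dPOLE4. The part of these markers in the differences of the pluripotency genes was not tested.

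How far the genes fell by T60 was compared between arms with an interaction of arm and time. Between dPOLE4 and Ctrl, 0 of 9 genes were called by edgeR or DESeq2 and 1 had an unadjusted p below 0.05 (Sox2, -0.36 ± 0.099, adjusted p = 0.199), where 0.0104% of features were called. Between Ctrl MCM2-2A and Ctrl, where 9.10% of features were called, Pou5f1 alone of the 9 passed. It fell by 4.80 ± 0.11 in Ctrl and by 3.26 ± 0.10 in Ctrl MCM2-2A, a difference of 1.52 ± 0.15 (adjusted p = 1.26e-06), and 3.58% and 10.4% of the T0 level remained. Dppa5a (0.47 ± 0.15, adjusted p = 0.0259) and Gdf3 (0.49 ± 0.14, adjusted p = 0.0140) were not called, although Dppa5a was without the first Ctrl T60 library (0.69). Sox2 stood at -0.32 ± 0.17. In the network list 9 of 20 genes fell less and 0 fell more, led by Tcl1 (2.56 ± 0.34) and Nanog (2.14 ± 0.14).

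Between dPOLE4 MCM2-2A and Ctrl MCM2-2A, where 0.254% of features were called, Gdf3 was the member that passed. It stood at 73.9, 70.0 and 63.7 CPM in Ctrl MCM2-2A T0 and 48.8, 58 and 56.4 CPM in dPOLE4 MCM2-2A T0, and the order was the opposite at T60, with no overlap at either time. The difference of the falls was 0.98 ± 0.15 (adjusted p = 0.00512), and 8.06% and 16.1% of the T0 level remained. The call held with DESeq2, without the filter and with the block, but it was lost in 9 of the 12 fits that left out 1 library, with values between 0.90 and 1.03. Dppa2 (0.65 ± 0.12, adjusted p = 0.0128) and Pou5f1 (0.66 ± 0.17, adjusted p = 0.0691) were not called, although both were with the block and Dppa2 was with DESeq2 (adjusted p = 5.38e-05). Of the network list, Tdgf1 (1.13 ± 0.16) and Nr5a2 (0.76 ± 0.13) fell less.

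Across the 16 group means of the 24 h and RA table, the members varied together to different degrees. Pearson's r of log2 CPM between pairs of members lay between 0.33 for Dppa5a with Lin28a and 0.98 for Sox2 with Sall4 and Utf1 with Dppa4, over points that share cell lines and libraries of related treatment. Over these groups the mean level varied 32.3-fold for Utf1, 31.4-fold for Pou5f1, 17.9-fold for Gdf3 and 14.7-fold for Sox2, but 2.51-fold for Sall4 and 1.78-fold for Lin28a. In the order of the 16 means, between 3 and 5 of the 15 neighbouring pairs had libraries that did not overlap for each gene, and the libraries of the other neighbouring groups overlapped. By mean, Pou5f1, Sox2, Sall4 and Utf1 were highest in Ctrl MCM2-2A T0, while Pou5f1, Dppa2, Dppa4 and Dppa5a were lowest in Ctrl T60. In each of these cases the libraries overlapped those of the next group in the order.

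The gene outside the 9 whose pattern was most like that of a member was found by Pearson's r over the 16 group means, with no test. Each value is the highest found among the 21330 features over the filter, members left out, and is high in part by that choice. Among these were Chchd2 for Pou5f1 (0.995), Rcc2 for Sox2 (0.995), Gpd2 for Sall4 (0.994), Ddx18 for Utf1 (0.998), Cabp4 for Dppa2 (0.984), Timm8a1 for Dppa4 (0.985), Shmt2 for Dppa5a (0.987) and L1td1 for Gdf3 (0.993). L1td1, a gene for an RNA-binding protein of pluripotent cells, is on the network list. Over the 48 libraries in place of the group means, Gpd2, Ddx18, Shmt2 and L1td1 were again the most similar. With Spearman's rho another feature came first for each of the 9.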

How the data were processed

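RNA was measured in 60 libraries by rRNA-depleted, strand-specific sequencing. The authors deposited raw read counts per gene and repeat subfamily in 2 tables, one with 48 libraries and one with the 12 libraries of 96 h. The submitters' processing notes name cutadapt 4.2, STAR and DESeq2, the last 2 without a version, and the strand setting of the counting is not given in the sources used here. Counts per library lay between 7126100 and 46609151. From these counts, CPM values scaled by TMM factors were computed, and each comparison was tested with edgeR 4.0.16 (quasi-likelihood, R 4.3.3, limma 3.58.1) on the libraries of its own groups, after filterByExpr (minimum count 10, minimum total 15). P-values were adjusted by Benjamini-Hochberg over all features tested, and a gene was called at an adjusted p below 0.01 and a log2 fold change above 0.58 in size. Differences between effects were interaction terms. Pearson correlations used log2 CPM with a prior count of 2. The steps were tested on simulated data. Python 3.11.15, pandas 2.3.3, numpy 2.4.6 and matplotlib 3.10.9 were used for tables and plots. Promoter bases come from RefSeq on GRCm38.p6. The members and lists were chosen with earlier results of these data known. The text names the 9 members, the 2 network genes with the largest called change in each direction, values of relatives, the nearest tested neighbours of called members, Pole4, Mcm2 and the most similar gene, except that the most similar gene of Lin28a is not reported here. Alternatives were DESeq2 1.42.0, its size factors in edgeR, no filter, the replicate number as a block, and leaving out each library in turn. Deviations of same-numbered libraries from their group means correlated above 0.1 in every pair in 3 comparisons. These were those of 96 h between Ctrl and dPOLE4 in each line and between the lines. Only there was the block taken to pair the libraries, and the main fits were unpaired throughout, at 96 h too.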

Additional observations from a re-analysis of the deposited data

Results flagged for a closer look

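The fall of Pou5f1 from T0 to T60 differed between Ctrl MCM2-2A and Ctrl by the interaction test of edgeR, by 1.52 on the log2 scale, with the smaller fall in Ctrl MCM2-2A, and the call held in each fit that left out 1 library. The fall of Gdf3 differed between dPOLE4 MCM2-2A and Ctrl MCM2-2A by the same kind of test, by 0.98 on the log2 scale, with the smaller fall in dPOLE4 MCM2-2A, but this call was lost in 9 of the 12 fits that left out 1 library. Each of these is a difference between groups in the same contrast. With 3 libraries a group, no test for single outlying libraries was made.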

How the results depend on the processing

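Of the 360 member values, the 216 with an unadjusted p below 0.05 were compared between settings, and none of them changed sign. DESeq2 left 210 on the same side of both thresholds, DESeq2 size factors in edgeR 212, no filter 210 and the replicate number as a block 213. Over all fits without 1 library, in which the same value can count more than once, a call was lost 41 times and gained 30 times. The number of the 9 genes called between the lines at 96 h was 1, but 0 with DESeq2, with its size factors and without the filter, and between 0 and 2 without 1 library. From T0 to T12 in Ctrl MCM2-2A it was 1, but 2 with DESeq2, with its size factors and without the filter, and between 0 and 3 without 1 library. For the difference of the RA response between dPOLE4 MCM2-2A and Ctrl MCM2-2A it was 1, but 2 with DESeq2 and 3 without the filter, and between 0 and 2 without 1 library. Without 1 library the number lay between 0 and 2 for POLE4 depletion in MCM2-2A at T60 (3 with all), between 1 and 2 from T0 to T12 in Ctrl (1 with all), between 1 and 3 in dPOLE4 MCM2-2A (2 with all), and between 1 and 2 for the difference of the RA response between Ctrl MCM2-2A and Ctrl (1 with all). The depth limits Gdf3 most, with 45 reads in its lowest library.

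With the replicate number as a block, the number of the 9 genes called was 0 between the lines at 96 h, where the numbers pair the libraries, and 3 for the difference of the RA response between dPOLE4 MCM2-2A and Ctrl MCM2-2A, where they do not. The block changed no other member's call. Mean correlations of same-numbered libraries lay between -0.08 and 0.25 over the 40 comparisons, and the lowest of a pair was -0.14.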
